A study of Mus musculus with 8 samples.

Results

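A set of 10 genes of the lipoxygenase and prostaglandin pathways was followed across 8 arrays of cultured mouse hippocampal neural stem and progenitor cells. They are 3 lipoxygenases (Alox5, Alox12, Alox15), 3 genes of leukotriene synthesis (Alox5ap, Lta4h, Ltc4s), 2 cyclooxygenases (Ptgs1, Ptgs2) and 2 prostaglandin synthases (Ptges, Ptgds). They were chosen by name, with the levels of Alox5 and other members on these same arrays already known, so their levels and differences are given as a description. The 10 genes had 14 probes among the 41174 of the array, and 7 of them were among the 13332 genes that passed the filter on dim probes, which asked that some group have the gene well above background on each of its 2 arrays. The other 3, Alox15, Ptgs2 and Ltc4s, did not pass it.

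Each array measured RNA of secondary neurospheres, floating clusters that grow after a round of dissociation from adult hippocampal cells kept with bFGF, EGF and heparin. All mice were 7 to 9 weeks old. Sirt1 KO and WT neurospheres came from 129/ICR mice and were cultured for 6 days, with replicate 1 from a female and replicate 2 from a male in each group. Resveratrol and DMSO neurospheres came from male C57BL/6 mice without the Sirt1 deletion, cultured for 5 days and then exposed for 24 hours. The label gives the resveratrol dose as 10 with the unit "mm". There were 2 arrays a group, and the labels do not say whether replicates were separate cultures or animals beyond the sexes named, so the spread between them may be partly technical.

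SIRT1 is a deacetylase that depends on NAD, and the series sets its loss beside exposure to resveratrol, a polyphenol described as its activator. How the deletion was made, and in which cells, is not given in the sources used here. The brighter Sirt1 probe read 0.42 and -0.07 on the arrays labelled Sirt1 KO, against 0.16 and 0.17 on WT arrays, as log2 of the signal over its array's 75th percentile, and the other read -1.01 and -1.92 against -1.34 and -0.99. Where these probes lie relative to the deleted part is not given, so they do not check the label. All 11 neural stem and progenitor markers of a fixed list (among them Nes, Sox2 and Fabp7) were well above background on all 8 arrays. The share of probes well above background ran from 53.1% to 72.0%, and 0 spots were saturated.

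Eicosanoids are signalling lipids made from arachidonic acid. 5-lipoxygenase, the product of Alox5, converts it with the help of the protein FLAP (Alox5ap) to leukotriene A4, which Lta4h turns into leukotriene B4 and Ltc4s into the cysteinyl leukotrienes. Cyclooxygenases (Ptgs1 and Ptgs2) make prostaglandin H2, from which Ptges makes prostaglandin E2 and Ptgds prostaglandin D2. Alox5 and Alox5ap are best known from leukocytes, Alox12 from platelets, and Ptgds from the meninges, choroid plexus and oligodendrocytes of the brain.

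The windows of 250 bases before the start sites of Alox5 and Alox12, whose group means ranged most widely among the 10 genes, are shown with the GC boxes in capitals (GGGCGG). In human cells the ALOX5 promoter is known for a run of such boxes. The sequences are from RefSeq on GRCm38.p6, 5′ to 3′ on the minus strand, at chr6:116461179-116461428 for Alox5 and chr11:70255371-70255620 for Alox12, and end just before the start site.
Alox5: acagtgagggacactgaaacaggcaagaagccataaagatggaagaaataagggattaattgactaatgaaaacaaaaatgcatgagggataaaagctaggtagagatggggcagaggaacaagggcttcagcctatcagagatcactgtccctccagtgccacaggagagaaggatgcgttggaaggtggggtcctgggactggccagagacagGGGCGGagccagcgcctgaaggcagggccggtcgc
Alox12: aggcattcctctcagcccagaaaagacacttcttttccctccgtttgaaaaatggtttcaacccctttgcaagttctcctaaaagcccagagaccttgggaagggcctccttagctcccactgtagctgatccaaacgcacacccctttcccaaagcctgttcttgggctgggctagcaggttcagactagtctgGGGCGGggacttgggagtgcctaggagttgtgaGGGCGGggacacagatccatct
The Alox5 window held 1 GC box, 35 bases before the start, and the Alox12 window held 2, at 55 and 22 bases. Searched on both strands, a GC box stood in 32.9% of 27025 RefSeq windows of this length. Among the 8 genes of the 10 with an entry in the table, Ptges (2 boxes) and Ptgs2 (1 box) also held it. None of the 8 windows held the antioxidant response element core TGACNNNGC, which 10.2% of all windows held, or the E-box CACGTG, which 6.05% held. The dioxin response element core GCGTG, which can overlap an E-box and stood in 28.2% of windows, was found in those of Ptgs2 and Ptges, 1 each. These matches describe letters and not binding.

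Alox5 was the gene of the 10 that differed most with resveratrol. Its probe A_51_P247249 had processed intensities of 385 and 578 on the resveratrol arrays, against 78.1 and 66.1 on the DMSO arrays. Over the 75th percentile of its array these are log2 levels of -0.90 and 1.01 with resveratrol, against -3.26 and -2.51 with DMSO. Both resveratrol arrays lay above both DMSO arrays, and the probe was well above background on all 8 arrays. The log2 difference was 2.94 (SE 0.65, n = 2 each), which is 7.68-fold higher with resveratrol, and it ranked as number 4 of the 13332 genes.

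Replicates 1 of resveratrol and DMSO shared a slide, and replicates 2 shared another. The difference was 2.36 within the slide of replicate 1 and 3.52 within that of replicate 2, so both slides showed it. In the limma fit of 4 group means the adjusted p was 0.99997 (unadjusted p = 0.00297), and in that fit 0 of the 7 genes and 0% of all 13332 genes passed the adjusted p of 0.05 for resveratrol minus DMSO, with 201 genes at an unadjusted p under 0.05. With the replicate number as a block, which in these groups is the slide, the adjusted p was 0.0318. Alox5 was then the 1 gene called among the 7, where 0.338% of all genes were called (45). With slide itself as a block over all 8 arrays the adjusted p was 0.947. The call thus rests on the block, and leaving out resveratrol replicate 2 gave a difference of 1.99, while leaving out resveratrol replicate 1 gave 3.90.

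The other probes of Alox5 gave the same direction. Probe A_52_P214126 read -1.19 and 0.79 with resveratrol, against -3.52 and -2.65 with DMSO, a log2 difference of 2.88 (SE 0.71). Probe A_52_P214134 was dimmer and read -2.66 and -1.03 with resveratrol, against -4.40 and -4.23 with DMSO, a difference of 2.47 (SE 0.80). All 3 probes were well above background on the 4 arrays of these groups and showed no overlap between them.

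**Figure D1:**
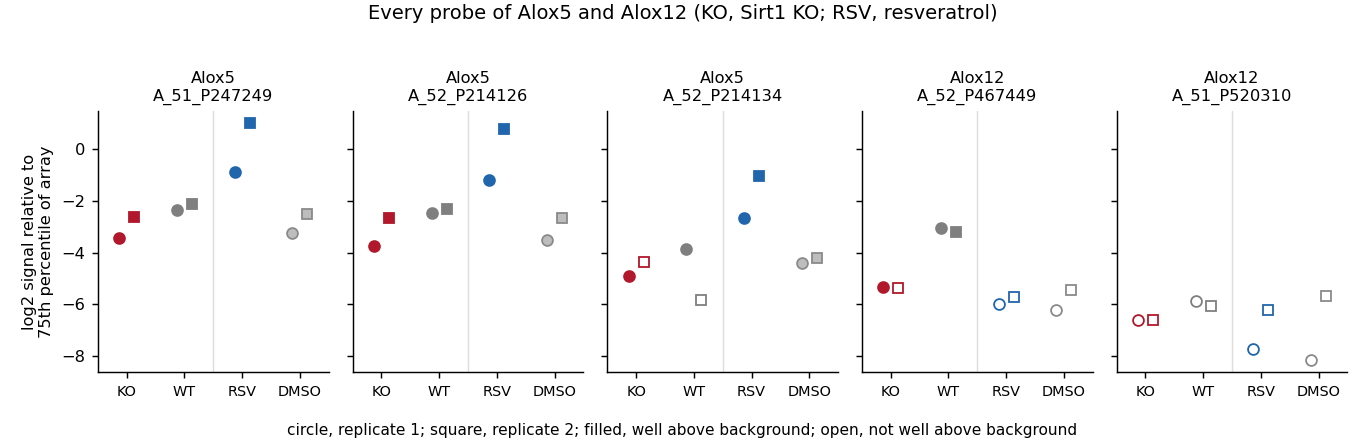
Log2 signal of the 3 Alox5 probes and the 2 Alox12 probes, over the 75th percentile of its array, on the Sirt1 KO, WT, resveratrol (RSV) and DMSO arrays; circles are replicate 1, squares replicate 2, and open symbols are not well above background. All 3 Alox5 probes were higher on both resveratrol arrays than on both DMSO arrays, and 1 of the 2 Alox12 probes was well above background on both WT arrays.

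In the genotype groups Alox5 stood lower with the deletion, by less than with resveratrol and without passing the test. Probe A_51_P247249 read -3.44 and -2.61 on Sirt1 KO arrays, against -2.35 and -2.12 on WT arrays. The arrays did not overlap, and the difference of -0.79 (SE 0.65) was 1.73-fold lower in Sirt1 KO, with an adjusted p of 0.9999 in limma. It was -1.09 between replicates 1, which lay on different slides, and -0.49 between replicates 2, which shared the third slide, and -1.26 with slide as a block. The dimmest probe, A_52_P214134, gave 0.21 (SE 0.80) and was not well above background on replicate 2 of either group.

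Ordered by group mean, Alox5 was highest with resveratrol (0.06 ± 1.35, SD, n = 2), then in WT (-2.24 ± 0.16), DMSO (-2.88 ± 0.53) and Sirt1 KO (-3.02 ± 0.59). DMSO and Sirt1 KO arrays overlapped. DMSO minus WT, which also differ in strain and vehicle, was -0.65 (SE 0.65). The difference of differences, Sirt1 KO minus WT less resveratrol minus DMSO, was -3.73 (SE 0.92). Its adjusted p was 0.99988 in the fit of group means, in which 0% of all genes passed (126 at an unadjusted p under 0.05), and 0.0292 with the replicate block.

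Marker genes of other cells were read beside Alox5. Of 11 microglia and macrophage markers with a probe, 3 passed the filter (Csf1r, Fcer1g and C1qb), and Aif1, Itgam, Cx3cr1, Tyrobp, Ptprc, Trem2 and C1qa were not well above background on any array. The summed signal of the list, relative to the 75th percentile, was 0.37 and 0.37 on resveratrol arrays, against 0.36 and 0.32 on DMSO arrays. In the genotype groups it was 0.25 and 0.63 in Sirt1 KO, against 0.35 and 0.64 in WT. These sums, like those of the other lists, take only the genes that passed the filter and rest on few genes.

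Of the platelet and mast cell list, 2 of 9 genes with a probe passed the filter, and Pf4, a platelet chemokine, read -4.002 and 0.12 with resveratrol, against -5.46 and -1.52 with DMSO. That is a difference of 1.46 within 1 slide and 1.64 within the other. The other kept gene, Gp1bb, a platelet glycoprotein, differed by -0.15 (-0.17 and -0.13 within the slides), and Gp9, Ppbp, Ms4a2 and Mcpt4 were not well above background on any array. The summed signal of that list, in which Pf4 varied most, was 0.14 and 1.20 with resveratrol, against 0.11 and 0.47 with DMSO. All 3 kept fibroblast and meningeal markers (Col1a2, Igf2 and Slc6a13) were higher on both resveratrol arrays, where 10.2% of all genes were, but Igf2 was kept only through resveratrol. Of the 4 that did not pass the filter, Pdgfrb (-1.08) and Dcn (-0.21) had lower signals with resveratrol in both pairs and were each well above background on 1 array. The other 2, Col1a1 (0.46) and Lum (0.66), had higher signals with resveratrol in both pairs. Col1a1 was well above background on 3 arrays and Lum on 0. The sum of the 3 kept genes, which leaves out these 4, was 0.36 and 0.32 with resveratrol, against 0.21 and 0.19 with DMSO.

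Astrocyte markers were mixed with resveratrol. Gfap, the astrocyte filament protein, read -1.79 and -1.41 with resveratrol, against -3.40 and -3.18 with DMSO, a difference of 1.69. Gfap and Gja1 (0.43) were the 2 of the 7 higher on both resveratrol arrays, where 10.2% of all genes were. S100b (0.31) was higher in both pairs with overlap, while Aldoc (-0.27) and Aldh1l1 (-0.03) were lower in both pairs. The median difference of the list was 0.03. By value, 4 of the 7 astrocyte markers (Gfap, Aqp4, Aldoc and Gja1) were higher on both Sirt1 KO arrays than in WT, where 7.66% of all genes were. Among the genotype arrays Gfap was well above background on Sirt1 KO 1 alone, and Aqp4 was not so on WT 2. The sum of that list was 95.6 and 172 in Sirt1 KO, against 63.9 and 111 in WT, and 128 and 120 with resveratrol, against 135 and 121 with DMSO. The part of any of these cells in the Alox5 result was not tested, and in such bulk samples fewer cells of a type and less RNA per cell cannot be told apart.

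**Figure D2:**
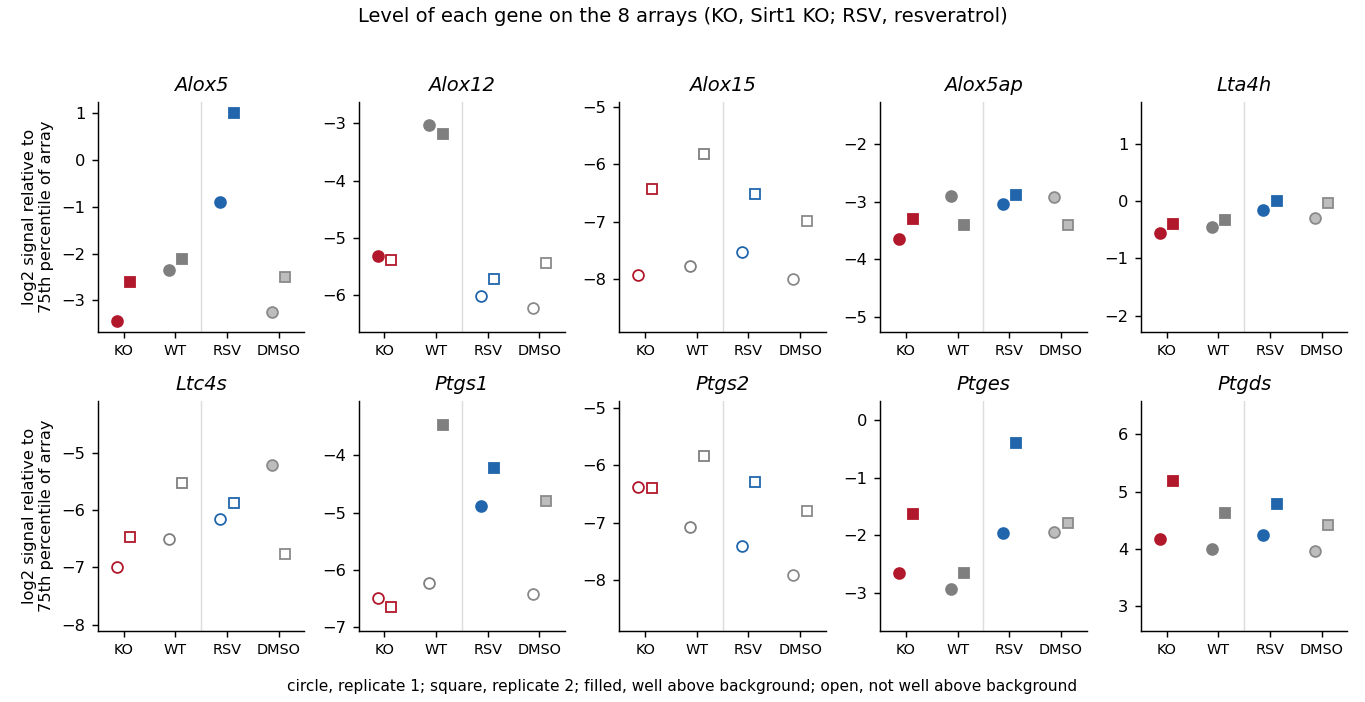
Log2 signal of each of the 10 genes, over the 75th percentile of its array, on the Sirt1 KO (KO), WT, resveratrol (RSV) and DMSO arrays; 1 probe is shown a gene, circles are replicate 1, squares replicate 2, and open symbols are not well above background. Alox5 was highest on the 2 resveratrol arrays and Alox12 on the 2 WT arrays, while Alox15 and Ptgs2 have only open symbols.

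Alox12, the platelet-type 12-lipoxygenase, was highest in WT neurospheres of the 129/ICR background. Its probe A_52_P467449 read -5.32 and -5.39 on Sirt1 KO arrays, against -3.04 and -3.19 on WT arrays. Both WT arrays and Sirt1 KO 1 were well above background and Sirt1 KO 2 was not, and the groups did not overlap. With Sirt1 KO 2 set to the lowest level well above background on its array, Alox12 was at least 3.30-fold lower in Sirt1 KO. The fitted difference was -2.24 (SE 0.51), with an adjusted p of 0.9999 in limma (unadjusted p = 0.00349).

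Between the females, both measured, the difference was -2.28. Between the males, whose arrays shared a slide, it was -2.20 by value, but with the Sirt1 KO array below background this is only at least 2.24-fold lower. With slide as a block the fitted difference was -2.45 (adjusted p = 0.405). The gene passed the filter only through WT, so a lower value elsewhere was built into its being kept. Its second probe, A_51_P520310, was not well above background on any array. Whether the probe also reads the related lipoxygenases of chromosome 11, Alox15 and Alox12e, was not tested.

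In the C57BL/6 groups Alox12 was not well above background on any of the 4 arrays. It read -6.00 and -5.71 with resveratrol, against -6.23 and -5.43 with DMSO, and values below background have no order. DMSO minus WT was at least 5.20-fold lower in DMSO, taking the lowest level well above background on each DMSO array or the probe's own level where that was higher (fitted log2 difference -2.72, adjusted p = 0.218). Strain, sex, culture time and vehicle differ between these groups and cannot be told apart.

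Pf4, the platelet marker named above, read -4.81 and -3.49 in Sirt1 KO, against -3.28 and -2.21 in WT, a difference of -1.41. Gp1bb, the other kept gene of that list, differed by -0.19, with 0.00085 and -0.38 between the pairs. The summed signal of the platelet and mast cell list was 0.12 and 0.17 in Sirt1 KO, against 0.18 and 0.32 in WT. The part of such cells in the Alox12 result was not tested.

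Alox15, which in mice makes mostly the 12-hydroxy product, was not well above background on any of the 8 arrays. Its probe is below the filter in all groups, so no difference is given. Of the other lipoxygenases, Alox12b and Aloxe3, known from the epidermis, passed the filter. Alox12b differed by -0.09 in Sirt1 KO minus WT, and Aloxe3 by 0.36 in resveratrol minus DMSO. Alox8 was not well above background on any array, and Alox12e was so on 2.

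Alox5ap and Lta4h, partners of 5-lipoxygenase, differed by less than their SE in both comparisons. Alox5ap, which presents arachidonic acid to the enzyme, was well above background on all arrays and read -3.04 and -2.88 with resveratrol, against -2.92 and -3.41 with DMSO. The difference was 0.21 (SE 0.37), and the slides went opposite ways (-0.12 and 0.54). In the genotype groups it read -3.65 and -3.31 in Sirt1 KO, against -2.90 and -3.40 in WT, with a difference of -0.33 (SE 0.37), and the groups overlapped. With normexp on the median signals, another background correction, that difference was -1.02, and DMSO minus WT was -0.87 in place of -0.02.

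Lta4h, the hydrolase that makes leukotriene B4, was the steadiest of the 7 genes. It read -0.15 and 0.0038 with resveratrol, against -0.30 and -0.04 with DMSO, a difference of 0.10 (SE 0.22). In Sirt1 KO it read -0.55 and -0.40, against -0.45 and -0.33 in WT, a difference of -0.09 (SE 0.22). Both comparisons overlapped. Ltc4s was well above background on 1 array, DMSO 1, so no difference is given for this gene of the cysteinyl leukotriene branch.

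The cyclooxygenases were dim. Ptgs2, the inducible enzyme, was not well above background on any array with either of its 2 probes. Ptgs1, the constitutive enzyme, was well above background on both resveratrol arrays, DMSO 2 and WT 2, and passed the filter only through resveratrol. It read -4.89 and -4.22 with resveratrol, against -6.42 and -4.79 with DMSO, and the groups overlapped. The difference was 1.05 (SE 1.02), with 1.53 and 0.57 within the slides.

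In Sirt1 KO neurospheres Ptgs1 was not well above background on either array (-6.48 and -6.64), against -6.22 and -3.48 in WT, of which WT 2 alone was measured. As WT 1 was not well above background either, no bound is given for the difference. By value the fitted difference was -1.71 (SE 1.02, adjusted p = 0.9999 in limma). WT replicate 2 decides that value: the fitted difference was -0.34 without it and -3.08 without WT replicate 1. The pairs differed by -0.26 and -3.16.

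The prostaglandin synthases were measured on every array. Ptges, the inducible synthase of prostaglandin E2, read -1.96 and -0.39 with resveratrol, against -1.95 and -1.79 with DMSO. Resveratrol 2 stood above the other 3 arrays and resveratrol 1 did not. The difference was 0.70 (SE 0.57), with -0.0071 within 1 slide and 1.40 within the other, and -0.09 without resveratrol replicate 2.

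Ptges read -2.66 and -1.63 in Sirt1 KO, against -2.94 and -2.65 in WT, and Sirt1 KO 1 lay just below WT 2. The difference was 0.65 (SE 0.57, adjusted p = 0.9999) and was -0.39 with normexp. DMSO minus WT was 0.93 (SE 0.57), with the arrays apart, and -0.29 with normexp. No direction is therefore given for Ptges in any of the 3 comparisons.

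Ptgds was far above the 75th percentile of every array. It read 4.24 and 4.78 with resveratrol, against 3.97 and 4.42 with DMSO, and 4.17 and 5.18 in Sirt1 KO, against 4.01 and 4.62 in WT. The groups overlapped in both comparisons, with differences of 0.32 (SE 0.45) and 0.36 (SE 0.45). Relative to the 75th percentile, replicate 2 was above replicate 1 in all 4 groups. Before that scaling the processed intensity of Ptgds was lower on replicate 2 in each group, as was the 75th percentile itself. The summed signal of the oligodendrocyte markers was 9.82 and 9.26 in Sirt1 KO, against 6.06 and 7.27 in WT, and 7.56 and 6.05 with resveratrol, against 10.0 and 8.30 with DMSO. The part of these cells in the Ptgds values was not tested.

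**Figure D3:**
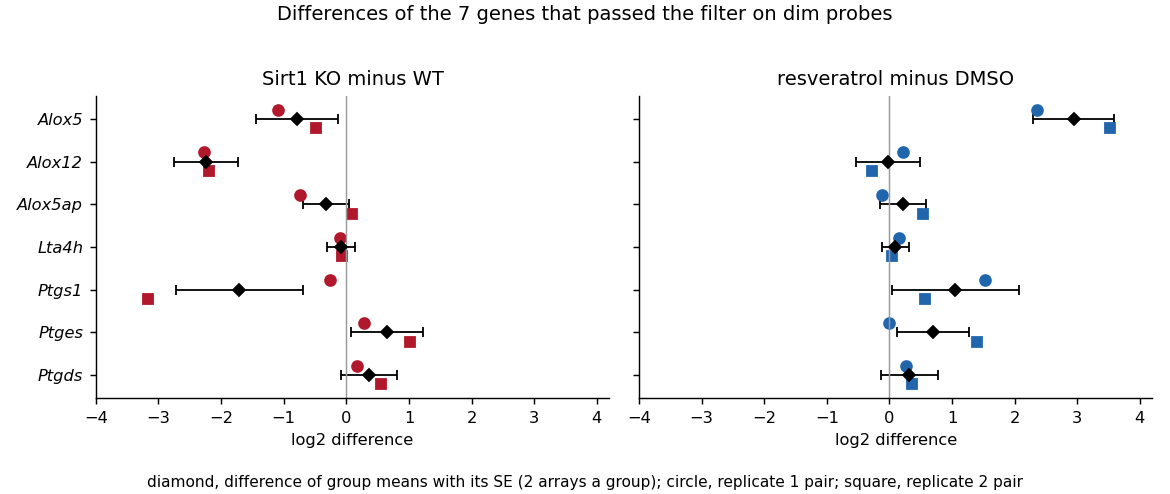
Log2 differences of the 7 genes that passed the filter, for Sirt1 KO minus WT on the left and resveratrol minus DMSO on the right; diamonds with bars are the difference of group means with its SE (2 arrays a group), circles the replicate 1 pair and squares the replicate 2 pair. The Alox5 pairs lie at 2.36 and 3.52 with resveratrol, and the Alox12 pairs at -2.28 and -2.20 in Sirt1 KO, the second of them against an array below background.

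Counted together, 0 of the 7 genes passed the adjusted p of 0.05 in Sirt1 KO minus WT, where 0% of all genes did (160 at an unadjusted p under 0.05). By value 3 genes (Alox5, Alox12 and Ptgs1) were lower on both Sirt1 KO arrays than on both WT arrays, where 7.39% of all genes were, and 0 were higher, where 7.66% were. For Ptgs1 both Sirt1 KO arrays and WT 1 were below background, so that order was not measured. With resveratrol 1 gene (Alox5) was higher on both arrays, where 10.2% of all genes were, and 0 were lower, where 8.84% were. The 7 include 2 that passed the filter through 1 group, so nothing is read from these counts. Their median was -0.33 in Sirt1 KO minus WT, beside -0.03 over all genes, and 0.32 in resveratrol minus DMSO, beside 0.01.

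In DMSO minus WT 0 of the 7 genes passed the test, where 0.075% of all genes did (10). Lta4h and Ptges were higher on both DMSO arrays, where 12.9% of all genes were, and Alox5 and Alox12 were lower, where 13.4% were. Their median was -0.12, beside -0.02 over all genes.

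Of 65 other genes of these pathways, 62 had a probe and 40 passed the filter. With resveratrol 10 of the 40 (25%) were higher on both arrays and 1 was lower, beside 10.2% and 8.84% of all genes. The median difference was 0.20, beside 0.01 over all genes. The 10 include Akr1c18, which passed the filter only through resveratrol. In Sirt1 KO minus WT 3 were higher and 2 lower, beside 7.66% and 7.39%, with a median of -0.02, and 0 of the 40 passed the test in either comparison.

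Among the 7 kept genes of prostanoid and leukotriene breakdown and transport, 5 were higher on both resveratrol arrays than on both DMSO arrays (Ptgr2, Abcc4, Cyp4f14, Ephx1 and Ephx2), beside 10.2% of all genes, and the median difference was 0.59. Ptgr1, an oxidoreductase that inactivates leukotriene B4 and reduces 15-keto prostaglandins, differed most. It read 0.93 and 3.32 with resveratrol, against 0.42 and 1.76 with DMSO, a difference of 1.04, with 0.51 and 1.56 within the slides. Replicate 1 was low in both groups, so the groups overlapped although each slide showed the same direction. In Sirt1 KO minus WT the list's widest difference was that of Ephx2, the soluble epoxide hydrolase, at 0.77, with 1.44 between the replicate 1 pair and 0.09 between the replicate 2 pair, as WT 1 stood low (-1.66).

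Of 8 other prostanoid synthases, 2 were higher on both resveratrol arrays, beside 10.2% of all genes. Akr1c18, an aldo-keto reductase kept only through resveratrol, read -5.46 and -3.32 with resveratrol, against -6.55 and -5.54 with DMSO, where neither array was well above background. It was at least 2.14-fold higher with resveratrol, with a fitted log2 difference of 1.66. Gstm2, a glutathione S-transferase, read -1.84 and -0.27 with resveratrol, against -3.07 and -2.23 with DMSO, a difference of 1.60 that limma called with the replicate block. In Sirt1 KO minus WT these were -0.26 and 0.06.

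Of 5 kept receptors, Ltb4r1, the high-affinity receptor of leukotriene B4, differed most in both comparisons. It read -3.03 and -2.75 with resveratrol, against -3.90 and -4.12 with DMSO, a difference of 1.12. In Sirt1 KO it read -4.01 and -2.32, against -3.75 and -1.28 in WT, a difference of -0.65 with overlap. Ltb4r1 was the 1 receptor of the 5 higher on both resveratrol arrays, where 10.2% of all genes were. Ltb4r2, also kept, differed by 0.05 with resveratrol, with -0.09 and 0.18 within the slides.

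Of 5 kept genes of the other leukotriene and mercapturate steps, Ggt5, which cleaves leukotriene C4, differed by 0.78 with resveratrol and by 0.74 in Sirt1 KO minus WT, with no overlap in either. Of 13 kept genes of lipid release, Mgll, the monoacylglycerol lipase that frees arachidonic acid from an endocannabinoid, read 0.93 and 1.04 in Sirt1 KO, against -0.34 and 0.29 in WT. That is a difference of 1.01, and both Sirt1 KO arrays lay above both WT arrays. In resveratrol minus DMSO the list's widest difference was that of Plaat3, an acyltransferase with phospholipase activity, at 0.48.

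**Figure D4:**
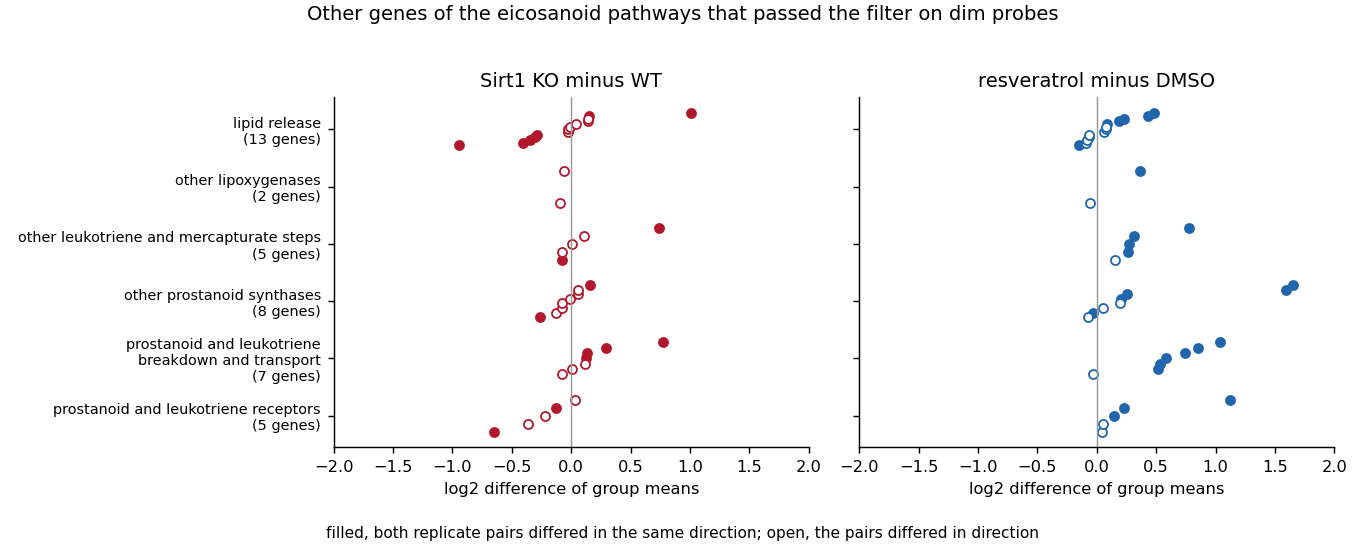
Log2 differences of the 40 other genes of the eicosanoid pathways that passed the filter, by list, for Sirt1 KO minus WT on the left and resveratrol minus DMSO on the right; each point is a gene, filled where both replicate pairs differed in the same direction. Akr1c18 (not well above background with DMSO), Gstm2, Ltb4r1 and Ptgr1 lie beyond 1 with resveratrol.

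The genes most like Alox5 over the 8 arrays, by Pearson's r among the 13332, were Hfe (0.983), Srxn1 (0.965), Adamts1 (0.957), Nceh1 (0.953) and Pex5l (0.952). Srxn1, the sulfiredoxin that repairs oxidised peroxiredoxins, read 2.56 and 4.16 with resveratrol, against 0.89 and 1.32 with DMSO, a difference of 2.25. In Sirt1 KO minus WT it differed by -0.07. Hfe, a regulator of iron uptake, differed by 0.72 with resveratrol and by -0.13 in Sirt1 KO minus WT.

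For Alox12 the same measure named Necab2 (0.966), Prpf3 (0.963), 6530411M01Rik (0.939), Dact1 (0.938) and Slc22a15 (0.926). Dact1, a modulator of Wnt signalling, read 0.98 and 0.94 in Sirt1 KO, against 1.84 and 1.43 in WT, a difference of -0.67. These likenesses describe 8 arrays that share slides and groups, and each list rests on the group that set its gene apart.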

How the data were processed

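RNA from the 8 samples was read on 1-colour Agilent arrays with, per the file headers, Feature Extraction 10.7.3.1. The deposited intensity of each spot is the scanner software's background-corrected signal, not normalized between arrays; the authors' deposited value table holds log2 values on a normalized scale (the method is not stated) and served as an alternative. Its column medians were 6.28 on the 6 arrays of slides 1 and 2 and 6.01 on the 2 of slide 3, and its columns correlated with the log2 intensities at 0.993 to 0.999, so it is log2, uncentred and in the same direction. The spots of a probe were averaged, and each array's 75th percentile was subtracted from its log2 intensities. A probe was kept where some group had it well above background on each of its 2 arrays (26362), and a gene was read by its brightest kept probe on average. Symbols came from accessions matched to RefSeq (26918 probes matched and 14256 did not).

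The fit was limma 3.58.1 in R 4.3.3, with 4 group means over all 8 arrays, an intensity trend and Benjamini-Hochberg adjustment over all 13332 genes, checked on simulated data. The simulated arrays held independent genes and no slide or replicate effect, so that check covers the code and not the power here. The members and the gene lists were chosen with earlier results of these data known. All 10 members are named; in the other lists the gene with the widest difference in each comparison and any called gene are named, with Gstm2 and the markers beside a result added after their values were seen. Per the file headers the resveratrol and DMSO arrays of a number share a slide, so the replicate number was taken as a pairing there. Their deviations from the group means correlated at 0.834 across genes. Replicate 2 arrays were dimmer in all 4 groups, with 75th percentiles of 249 to 377, against 716 to 872 on replicate 1. That correlation alone therefore cannot show a pairing. Alternatives were blocks by replicate number and by slide, other background corrections, scalings and filters, and leaving out each array. As gMeanSignal is not among the columns used, normexp took the median signals, with an offset of 50. The number of arrays limits the precision.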

Additional observations from a re-analysis of the deposited data

Results flagged for a closer look

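By value of the probe that stood for each gene, Alox5, Ptgs1 and Lta4h differed in opposite directions in the 2 arms in both replicate pairs. The arms are genotype and treatment. The share of all genes with this pattern was not counted, so nothing is read from the number of members. Lta4h differed by -0.09 and 0.10, each less than its SE of 0.22. The dimmest Alox5 probe, A_52_P214134, did not show the pattern, with genotype pairs of -1.05 and 1.46. For Ptgs1 neither replicate 1 array of the genotype groups was well above background, so its direction there was not measured. For Alox5 the difference of differences (Sirt1 KO minus WT less resveratrol minus DMSO) was -3.73, for Ptgs1 -2.76 and for Lta4h -0.18. The genes were picked out by this pattern, so the test that follows is no independent support for it. In limma's fit of group means 0 of the 3 passed the adjusted p of 0.05, each with an adjusted p of 0.99988; with the replicate block Alox5 had an adjusted p of 0.0292, Ptgs1 0.369 and Lta4h 0.723. The Alox5 value was -2.77 without resveratrol replicate 2, and the Ptgs1 value was -1.39 without WT replicate 2.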

How the results depend on the processing

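With the replicate number as a block, 21 genes were called in Sirt1 KO minus WT (18 higher), 45 in resveratrol minus DMSO (38 higher) and 31 in the difference of differences, against 0 in each without it. For DMSO minus WT it was not run, since no block holds both groups. The pairing correlation in the genotype groups was 0.716, where replicates 1 lay on different slides, replicates 2 shared a slide and scan day, and the number is also sex. The block called Alox5 in resveratrol minus DMSO and in the difference of differences; it changed no other call of the 7 genes. In DMSO minus WT, slide as a block called 134 genes and normexp on the median signals 4. The calls there split into 4 higher and 6 lower, but 3 and 9 after quantile normalization, 2 and 7 with the percentile over probes detected on all arrays, and 7 and 6 in the authors' deposited table. Leaving out 1 array at a time gave 0 to 5 calls in Sirt1 KO minus WT, 0 in resveratrol minus DMSO, 0 to 5 in the difference of differences and 0 to 8 in DMSO minus WT, where a group left with 1 array is assumed to vary like the others. Of the values of the 7 genes under these alternatives, 443 stayed within the spread between replicates and 40 moved beyond it. Many of the 443 could not move, so the count does not measure stability. The replicate block, the fit without an intensity trend and leaving out an array of the other arm return the same difference by construction. Alox5 in resveratrol minus DMSO ran from 1.99 to 3.90 (2.15 with normexp), and Alox12 in Sirt1 KO minus WT from -2.45 to -1.66; both kept their direction under every alternative run. Slide as a block moved the median of all genes in Sirt1 KO minus WT to -0.11. Values of Alox15, Ptgs1, Ptgs2, Ltc4s and, outside WT, Alox12 are limited by signal over background.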
